A study of Mus musculus with 6 samples.

Results

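The 43 DNA replication and S-phase genes described here encode the proteins that mark replication origins, open the double helix, copy both strands, supply the nucleotides and repack the new DNA. They were taken by symbol from a list of mouse genes, and all 43 were matched to an Ensembl identifier among the 55487 gene rows of the count tables. The counts came from RNA sequencing of hepatocytes (the metabolic cells that make up most of the liver) from adult mice 6 to 8 weeks old, whose RNA was taken 48 h after the cells were isolated. Of 6 libraries, 3 came from mice homozygous for AEG-1-C75S and 3 from AEG-1-WT mice. In AEG-1-C75S, the cysteine of AEG-1 (astrocyte elevated gene-1, encoded by *Mtdh*) that carries a palmitoyl group is replaced by serine. Both genotypes were bred from heterozygotes, and every library has the treatment label Control. Whether the libraries of a genotype are from separate mice is not stated in the labels, nor is how the allele was made, so n counts libraries and the p-values measure the spread between libraries, which may be technical. The study's title names palmitoylation as a negative regulator of AEG-1, and the comparison asks here whether transcripts of the replication machinery differ between C75S and WT hepatocytes.

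A chromosome is copied in ordered steps. In G1 the origin recognition complex (ORC), with CDC6 and CDT1, loads the ring-shaped MCM2-7 helicase onto origins, and at the start of S phase CDC45 and the GINS complex join it to make the active helicase. Polymerase alpha with primase starts each strand, the RFC complex loads the PCNA clamp, and polymerases delta and epsilon extend the strands. Many of these genes are transcribed under E2F factors, which are released when cyclin-dependent kinases phosphorylate the retinoblastoma protein. Adult hepatocytes are mostly quiescent, and isolation and plating are known to move them out of deep quiescence.

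The libraries held from 16944723 counts on genes (C75S replicate 1) to 21044292 (C75S replicate 2). Levels are given as CPM, the counts of a gene scaled to the TMM-corrected library size. *Mtdh* averaged 199.8 CPM in C75S against 196.8 in WT (log2 fold change 0.02, edgeR adjusted p = 0.909). Reads summed over the gene do not show the mutated codon, so this value does not check the labels. The hepatocyte label was checked against markers: *Alb* alone was at 60607 CPM in C75S against 67143 CPM in WT, while *Clec4f*, a Kupffer cell marker, had no count in C75S and 0.0633 CPM in WT. Of 10 leukocyte and red cell markers, 7 had no count in any library, among them *Cd3e*, *S100a8* and *Hbb-bs*. Transcripts of sinusoidal endothelium were present, and the marker lists of the other liver cells are given beside the library sums.

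Most of the 43 genes were measured at low to moderate level. Most estimates were positive, and a minority of the genes passed the test threshold as higher in C75S. All 43 passed the filter on low counts. Of these, 3 rose in C75S at an adjusted p-value under 0.05 over all 12741 tested genes (edgeR's quasi-likelihood test with Benjamini-Hochberg adjustment): the helicase subunits *Mcm3* and *Mcm6* and the DNA methylation cofactor *Uhrf1*. None fell. The 3 calls are 6.98% of the 43 genes, where 3.11% of all tested genes were called, 1.74% as higher and 1.37% as lower. The same 3 genes were called with RLE scaling (3.08% of all tested genes) and upper-quartile scaling (3.17%), *Dut* was added with library-size scaling (3.23%), and DESeq2 (3.04%) and limma-voom (2.99%) called *Mcm3* and *Mcm6* alone. At an unadjusted p-value under 0.05, 10 of the 43 were higher (23.3%) and 0 lower, where 6.91% of all tested genes were higher at that level and 13.4% passed it in either direction. Estimates were positive for 33 genes and negative for 10, so 76.7% were positive against 49.1% of all tested genes. The median log2 fold change of the 43 was 0.12, and that of all tested genes -0.003. For 12 of the 43 genes (27.9%) the C75S libraries were all above the WT libraries, which held for 9.02% of all tested genes, and in 1 gene every C75S library lay below, which held for 8.96%. In bulk RNA, more cells in S phase and more transcript per cell cannot be told apart.

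**Figure D1:**
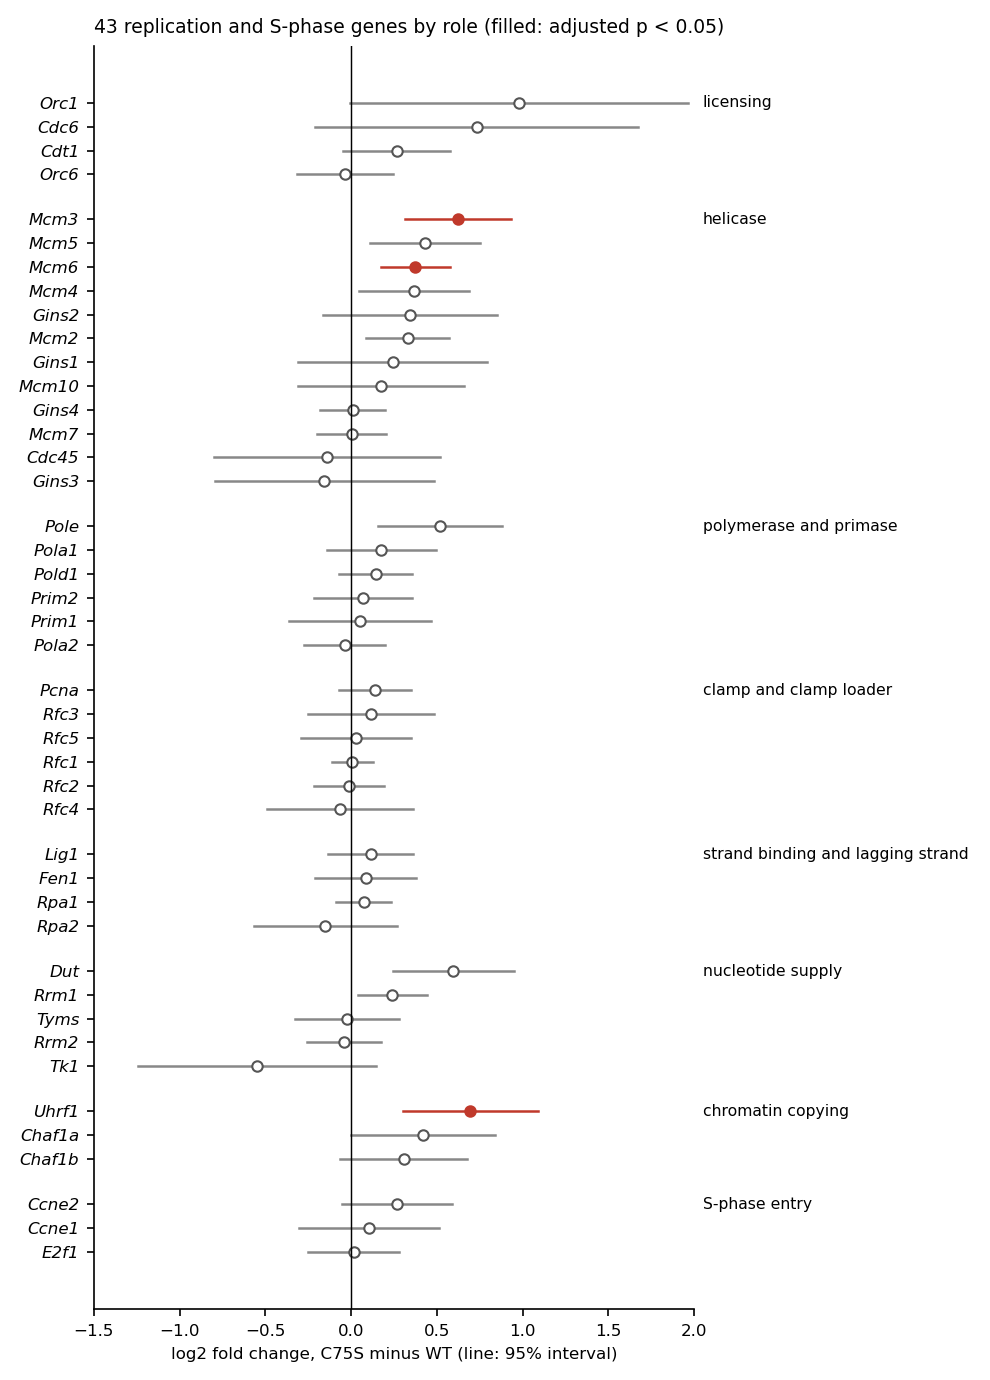
Log2 fold change of C75S against WT (x axis) for each of the 43 genes (y axis), grouped by role, with lines for the 95% interval from edgeR's quasi-likelihood fit (n = 3 libraries per genotype) and filled points for an adjusted p-value under 0.05. The filled points are *Mcm3*, *Mcm6* and *Uhrf1*, and most points of the helicase and chromatin groups lie right of 0 while the clamp loader lies close to it.

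*Mcm3* (ENSMUSG00000041859, GRCm38 chromosome 1, 20802968 to 20820312, minus strand) encodes a subunit of the MCM2-7 ring. Its level was 9.36, 9.49 and 7.22 CPM in C75S replicates 1, 2 and 3, and 6.03, 5.70 and 5.19 CPM in WT replicates 1, 2 and 3. All C75S libraries were above all WT libraries, with C75S replicate 3 the nearest to WT. The log2 difference was 0.62 (SE 0.15, edgeR adjusted p = 0.0188), a 1.54-fold rise. *Mcm6* (ENSMUSG00000026355, chromosome 1, 128331590 to 128359664, minus strand), another subunit of the same ring, was at 32.2, 25.2 and 24.5 CPM in C75S against 21.1, 19.9 and 22.1 CPM in WT. Here C75S replicate 1 stood above the other two C75S libraries. The log2 difference was 0.37 (SE 0.10, edgeR adjusted p = 0.0317).

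*Uhrf1* (ENSMUSG00000001228, chromosome 17, 56303321 to 56323486, plus strand) encodes the protein that reads hemimethylated DNA behind the fork and brings in the maintenance methyltransferase. It was at 5.40, 5.17 and 4.28 CPM in C75S and at 3.18, 3.22 and 2.77 CPM in WT, again without overlap. Its log2 difference of 0.69 (SE 0.19, edgeR adjusted p = 0.045) was the largest of the 3. A stretch covering 44.3% of its longest transcript is 98.3% identical to the pseudogene *Gm5648*, so reads from that stretch could be lost as multimapping in every library; *Gm5648* itself had a mean of 0.167 counts. Each call was lost on leaving out certain libraries, in fits that also called fewer genes overall (201 to 355 against 396), while the estimates kept their sign. For *Mcm3* the call was lost on leaving out replicate 1 or 2 of C75S, or replicate 2 or 3 of WT (adjusted p up to 0.109), with its log2 fold change between 0.55 and 0.74 over all alternatives. *Mcm6* was not called without C75S replicate 1 or without any 1 of the WT replicates, with values up to 0.287 and a log2 fold change between 0.24 and 0.44. *Uhrf1* was not called in any fit that left out a library other than C75S replicate 3, with values up to 0.189, nor by DESeq2 or limma-voom, and its log2 fold change was between 0.63 and 0.79.

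The promoters of the called genes are shown because all 3 hold a recognition sequence of E2F, the factor family that drives S-phase genes. The windows run from 250 bases before to 50 bases after the RefSeq transcription start (GRCm38.p6), and capitals mark matches to TTTGGCGC, TTTGCCGC, TTTCGCGC or TTTCCCGC (the long form) or to GGCGGGAA (the core form) on either strand. A core match can overlap a long one, as TTTCCCGC on one strand and GGCGGGAA on the other do in *Mcm3*.
Mcm3, chr1:20820263-20820562, minus strand: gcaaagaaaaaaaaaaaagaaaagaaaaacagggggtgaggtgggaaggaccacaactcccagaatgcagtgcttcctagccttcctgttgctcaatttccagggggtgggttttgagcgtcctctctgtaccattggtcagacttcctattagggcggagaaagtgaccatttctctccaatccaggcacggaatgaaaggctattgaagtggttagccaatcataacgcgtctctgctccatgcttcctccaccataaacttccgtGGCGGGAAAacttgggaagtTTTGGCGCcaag
Mcm6, chr1:128359656-128359955, minus strand: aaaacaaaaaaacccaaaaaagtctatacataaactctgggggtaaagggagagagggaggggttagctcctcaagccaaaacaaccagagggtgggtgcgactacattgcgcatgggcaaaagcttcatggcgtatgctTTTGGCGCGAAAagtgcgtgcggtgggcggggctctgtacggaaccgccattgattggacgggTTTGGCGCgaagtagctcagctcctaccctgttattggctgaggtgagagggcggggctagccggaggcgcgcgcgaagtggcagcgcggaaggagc
Uhrf1, chr17:56303087-56303386, plus strand: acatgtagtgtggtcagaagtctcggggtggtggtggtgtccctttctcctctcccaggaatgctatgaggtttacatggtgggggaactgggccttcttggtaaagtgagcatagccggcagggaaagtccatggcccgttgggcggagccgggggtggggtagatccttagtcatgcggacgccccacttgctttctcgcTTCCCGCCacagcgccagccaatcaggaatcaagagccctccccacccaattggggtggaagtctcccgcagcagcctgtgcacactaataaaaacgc
In *Mcm6* 2 long matches overlap, on opposite strands, from 110 bases before the start, and the third begins 47 bases before it. In *Mcm3* the matches lie downstream, beginning 18, 19 and 38 bases after the start. The *Uhrf1* window shown has a core match beginning 48 bases before the start, and a second RefSeq start of that gene has a long match 185 bases before it.

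RefSeq windows were found for 35 of the 43 genes (40 windows). A long-form E2F match was in the windows of 13 of these 35 genes (37.1%), against 2.60% of the 27025 genes with a window, and a core match in those of 7, against 2.52%. Matches to the NF-Y box (CCAAT on either strand) were in 21 of the 35 genes (60.0%), against 41.1%. The CHR element of mitotic genes (TTTGAA on either strand) was in 4 (11.4%), against 20.2%. The 27025 genes were not limited to those that passed the filter on low counts, as all 43 genes did, so the 2 sides of each comparison differ in expression. Of the 35 genes, 17 held either E2F form. All 3 called genes were among these 17, where 3.11% of all tested genes were called. *Uhrf1* had more than 1 window in which a match could fall. The median log2 fold change of the 17 genes was 0.24, with 15 of 17 positive and 6 at an unadjusted p-value under 0.05. The 18 genes with a window but no match had a median of 0.02, with 11 positive and 2 at that level. The 8 genes without a window, whose sites are not known here, had a median of 0.25, with 7 positive and 2 at that level. Of all tested genes, 6.91% were higher at that level. A difference between these classes was not tested. These are descriptions of letters in a fixed window, and binding was not measured.

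Among the 4 licensing genes, no member was called. Their median estimate was 0.50, and in 3 of them every C75S library was above every WT library, which held for 9.02% of all tested genes. *Orc1*, the ORC subunit that is made afresh in each cycle, had the largest estimate of the 43 genes, 0.98 (95% interval -0.01 to 1.96, edgeR adjusted p = 0.378). It was counted with 12, 22 and 12 reads in C75S and 8, 12 and 5 reads in WT, or 0.689, 1.04 and 0.642 CPM against 0.380, 0.585 and 0.243 CPM. The groups did not overlap, but at this depth a 1.97-fold difference is within the error of so few counts. *Cdc6*, which works with ORC to load the helicase, was as scarce, from 6 to 17 reads per library. Its groups did not overlap either, and its log2 fold change was 0.73 (95% interval -0.21 to 1.67, edgeR adjusted p = 0.527). *Orc6*, the smallest ORC subunit, was far more abundant and overlapped fully: 7.92, 7.97 and 7.17 CPM in C75S against 8.17, 7.46 and 8.05 CPM in WT, a log2 difference of -0.04 (95% interval -0.32 to 0.24). *Cdt1*, the partner that delivers the MCM ring, was at 6.69 ± 0.54 CPM in C75S against 5.56 ± 0.31 in WT (mean ± SD, n = 3), without overlap and with an edgeR adjusted p of 0.482.

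The helicase group held 2 of the 3 calls. Of its 12 genes, 10 had a positive estimate, 5 were at an unadjusted p-value under 0.05, and the median was 0.29. Of all tested genes, 49.1% had a positive estimate and 6.91% were higher at that level. The 5 helicase genes were *Mcm2* to *Mcm6*, with log2 fold changes from 0.33 to 0.62. *Mcm7*, the remaining subunit of the ring, gave 0.00 (95% interval -0.20 to 0.20, edgeR adjusted p = 0.994), so the interval of *Mcm7* did not reach the estimates of its 5 partners. A difference between subunits was not tested. *Mcm7* is 97.7% identical to the pseudogene *Gm5487* over 72.8% of its longest transcript, and it holds the miRNA genes *Mir25* and *Mir93* on the same strand, so part of its reads may not have been counted to it.

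None of the factors that activate the ring was called. *Cdc45* was at 1.40 ± 0.09 CPM in C75S against 1.54 ± 0.43 in WT, a log2 difference of -0.14 (95% interval -0.80 to 0.52). The 4 GINS genes ranged from -0.16 (*Gins3*) to 0.34 (*Gins2*), all with overlapping groups. *Gins2* overlaps *Gse1* (mean of 1265 counts) on the opposite strand over 2758 of its 4097 exon bases. Whether reads of *Gse1* entered its counts was not tested. *Gins4* was the member with the highest level per length of all 43, and its values hardly varied: 18.5, 18.4 and 20.6 CPM in C75S against 19.7, 17.9 and 19.6 CPM in WT (log2 fold change 0.01, 95% interval -0.18 to 0.20). *Mcm10*, which helps the helicase start, was at 0.17 (edgeR adjusted p = 0.823).

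Of the polymerase and primase genes 5 of 6 had positive estimates and 0 were called. *Pole*, the catalytic subunit of the leading-strand polymerase epsilon, came nearest. Its level was 6.14, 5.98 and 4.87 CPM in C75S against 4.18, 4.19 and 3.49 CPM in WT. Every C75S library exceeded every WT library, and the log2 difference was 0.52 (SE 0.18, edgeR adjusted p = 0.131). *Pold1*, the catalytic subunit of polymerase delta, was at 19.6, 17.6 and 15.6 CPM in C75S against 17.3, 15.2 and 15.3 CPM in WT, which overlap (log2 fold change 0.14, edgeR adjusted p = 0.608). The polymerase alpha and primase subunits *Pola1*, *Pola2*, *Prim1* and *Prim2* lay between -0.04 and 0.18.

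The clamp and its loader lay close to no difference, where 0 of 6 genes were called and the median estimate was 0.02. *Pcna*, the sliding clamp and a common marker of proliferating cells, was at 15.6, 14.8 and 14.0 CPM in C75S against 13.3, 13.0 and 13.8 CPM in WT. The groups did not overlap, though C75S replicate 3 and WT replicate 3 were nearly equal, and the log2 fold change was 0.14 (95% interval -0.07 to 0.35, edgeR adjusted p = 0.608). *Rfc1*, the large subunit of the clamp loader, was the most counted of the 43 genes. It was at 66.5, 65.9 and 62.5 CPM in C75S against 62.1, 67.8 and 64.3 CPM in WT, and its narrow interval of -0.11 to 0.13 on the log2 scale bounds any difference closely. *Rfc2* to *Rfc5*, the small subunits, ranged from -0.06 to 0.12.

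The genes of strand binding and the lagging strand showed no call and no separation of the groups. *Rpa1*, the large subunit of the single-strand binding protein, was at 38.5, 36.7 and 33.1 CPM in C75S against 33.1, 37.4 and 32.4 CPM in WT (log2 fold change 0.07, 95% interval -0.09 to 0.23). *Fen1*, the flap nuclease, and *Lig1*, the ligase that joins Okazaki fragments, had log2 fold changes of 0.08 and 0.11. *Rpa2* was at -0.15 (95% interval -0.57 to 0.27).

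The nucleotide supply genes went in different directions. *Dut*, which encodes the dUTPase that keeps uracil out of DNA, was just outside the threshold. It was at 6.83, 7.92 and 9.79 CPM in C75S against 5.51, 4.19 and 6.55 CPM in WT, without overlap, and the log2 difference was 0.60 (SE 0.17, edgeR adjusted p = 0.0569). Unlike *Mcm3*, *Mcm6* and *Uhrf1*, *Dut* had its highest value in C75S replicate 3, and it was called without C75S replicate 1 and without WT replicate 3. *Rrm1*, the large subunit of ribonucleotide reductase, was at 19.9 ± 2.08 CPM in C75S against 16.9 ± 1.27 CPM in WT (edgeR adjusted p = 0.247). Its partner *Rrm2*, the subunit usually limited to S phase, was at 30.5, 24.3 and 31.7 CPM in C75S against 25.6, 32.8 and 30.4 CPM in WT, fully overlapping, with a log2 difference of -0.04 (95% interval -0.26 to 0.17). *Tyms*, thymidylate synthase, was at -0.02.

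*Tk1*, the thymidine kinase of the salvage pathway, was the gene with the lowest estimate. It was at 0.919, 0.901 and 1.18 CPM in C75S against 1.61, 1.56 and 1.21 CPM in WT, from 16 to 34 reads per library. All C75S libraries were below all WT libraries, the single gene of the 43 for which this held, with a log2 difference of -0.55 (95% interval -1.24 to 0.14, edgeR adjusted p = 0.521). With counts of both strands its log2 fold change was 0.06 (edgeR adjusted p = 0.946), so the direction turned; *Tk1* overlaps *Afmid* on the opposite strand.

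All 3 genes of chromatin copying had positive estimates, with a median of 0.42. *Chaf1a* and *Chaf1b* encode subunits of CAF-1, which places new histones behind the fork. *Chaf1b* was at 6.83, 5.03 and 5.35 CPM in C75S against 3.94, 5.56 and 4.37 CPM in WT, overlapping through WT replicate 2 (log2 fold change 0.31, edgeR adjusted p = 0.498). *Chaf1a* was at 0.42 (edgeR adjusted p = 0.371) and spread widely within C75S, at 9.22 ± 2.77 CPM against 6.89 ± 1.22 CPM in WT. It was called (adjusted p = 0.0268) when C75S replicate 3 was left out. Of its 8854 exon bases, 4648 overlap *Ubxn6* on the opposite strand, a gene with a mean of 1162 counts. Whether reads of *Ubxn6* entered its counts was not tested.

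The genes of S-phase entry were flat or slightly positive, with 0 of 3 called. *E2f1*, an E2F factor that is itself an E2F target, was at 8.67, 9.06 and 8.08 CPM in C75S against 8.50, 8.63 and 8.44 CPM in WT (log2 fold change 0.01, 95% interval -0.25 to 0.28). *Ccne2*, a cyclin E that activates CDK2, was at 6.32, 6.26 and 5.99 CPM in C75S against 4.65, 5.36 and 5.43 CPM in WT. These groups did not overlap, and the log2 fold change was 0.27 (edgeR adjusted p = 0.498). *Ccne1* overlapped, at 0.10. Over the 8 groups, 40 genes were not called, and for 25 of these the 95% interval lay within 1.5-fold in either direction, so for the other 15 a difference of that size was not resolved at this depth.

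**Figure D2:**
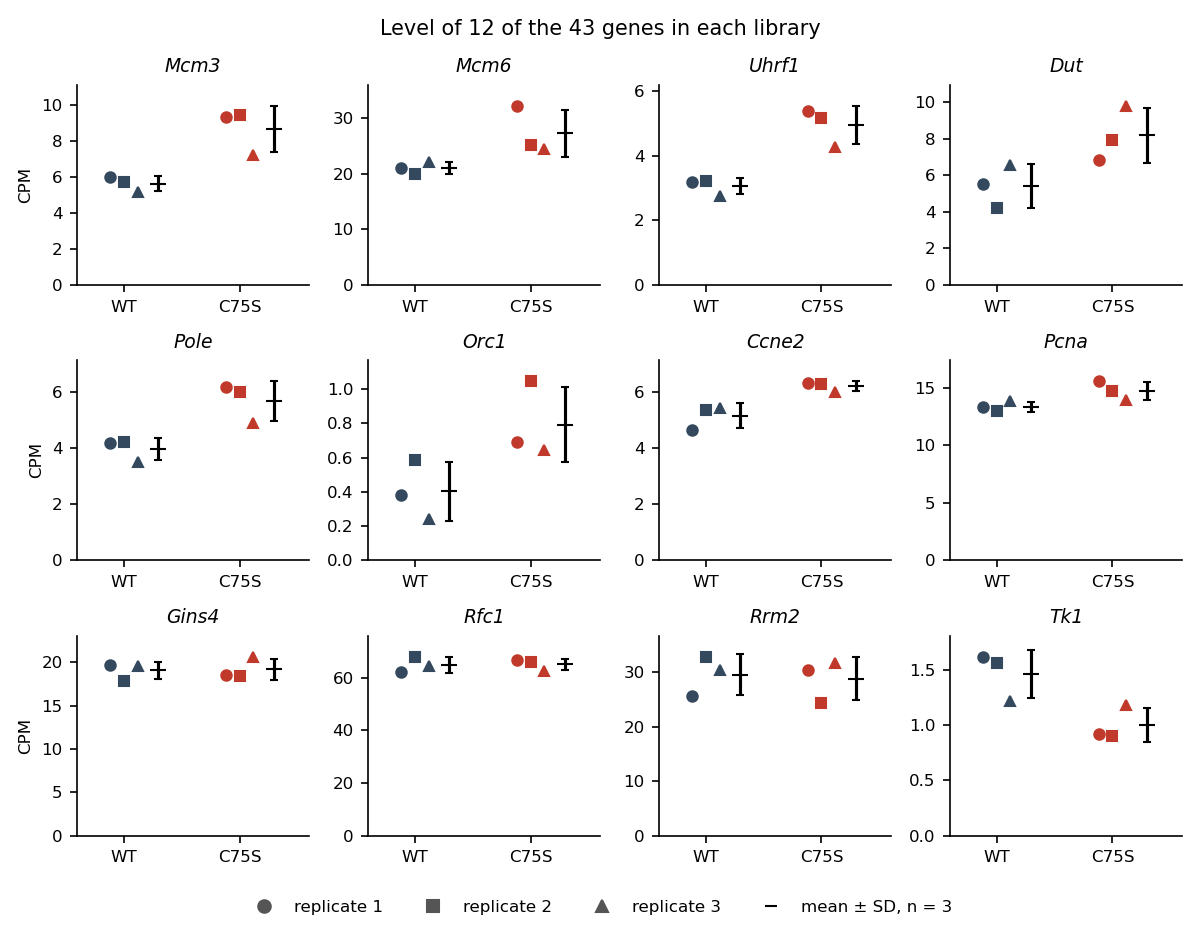
CPM (y axis, from 0) of 12 of the 43 genes in each library, by genotype (x axis), with symbols for the replicate number and bars for mean ± SD (n = 3). The genotypes separate in *Mcm3*, *Mcm6*, *Uhrf1*, *Dut*, *Pole*, *Orc1*, *Ccne2* and *Pcna*, with C75S replicate 3 often nearest to WT, and in the opposite direction in *Tk1*, while *Gins4*, *Rfc1* and *Rrm2* overlap.

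The levels themselves spanned a wide range, compared here as CPM per kb of annotated exon, a scale that removes gene length. The highest were *Gins4* (14.2 CPM per kb), *Rfc1* (10.8) and *Rrm2* (10.5), and the lowest *Cdc6* (0.124), *Orc1* (0.172) and *Tk1* (0.237). The median was 1.80 CPM per kb, with 6 genes above 5 and 12 below 1. Subunits that work in 1 complex were not level with each other at the RNA. The 6 genes of the MCM ring were within 2.79-fold, from *Mcm5* (1.86) to *Mcm6* (5.18), and the 2 of CAF-1 within 1.22-fold. In contrast, GINS spanned 23.7-fold, from *Gins3* to *Gins4*, and the 5 RFC genes 8.51-fold, from *Rfc5* to *Rfc1*. ORC spanned 32.1-fold, with *Orc1* lowest and *Orc3* (5.51 CPM per kb) highest. Exon length counts every annotated isoform, so genes with long rare isoforms are understated on this scale.

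**Figure D3:**
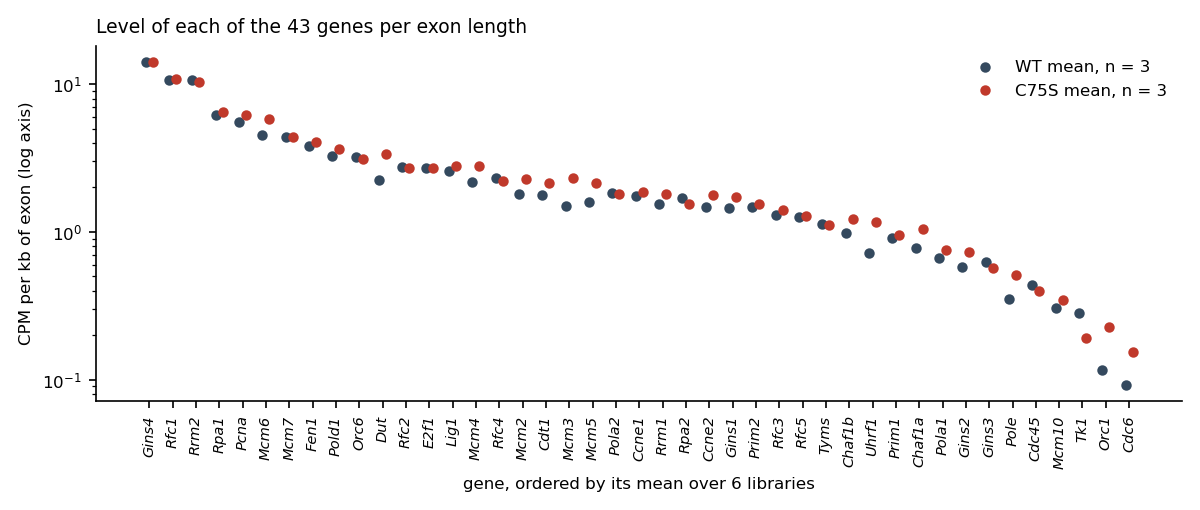
Mean level per kb of exon (log y axis) of each of the 43 genes in WT and C75S (n = 3 each), ordered by the mean over 6 libraries (x axis). Levels run from 14.2 for *Gins4* to 0.124 for *Cdc6*, and the 2 genotypes lie close together relative to that range.

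The difference was not spread evenly over the C75S libraries. Summed over the 43 genes, the level was 502.7, 470.2 and 443.6 CPM in C75S replicates 1, 2 and 3 and 427.8, 430.1 and 438.1 CPM in WT replicates 1, 2 and 3. C75S replicate 1 therefore stood highest, and C75S replicate 3 lay nearest to WT. The same C75S replicate 1 had the fewest counts on genes and the largest share of unmapped reads (5.81%, against 4.37% to 4.82% in the other libraries). The part of library quality in the pattern was not tested. C75S replicate 1 was the highest of the 6 libraries in 20 of the 43 genes and the lowest in 0. C75S replicate 3 was the highest in 2 and the lowest in 10. Without C75S replicate 1 the number of positive estimates fell to 27 of 43, the median log2 fold change was 0.08, 7 genes were higher at an unadjusted p-value under 0.05, and *Dut* was the gene called. In that fit 1.95% of all tested genes were called and 5.84% were higher at that unadjusted level. Without WT replicate 2, 0 genes were called by edgeR, with 10 higher at an unadjusted p-value under 0.05, where 1.55% of all tested genes were called and 6.47% were higher at that level.

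**Figure D4:**
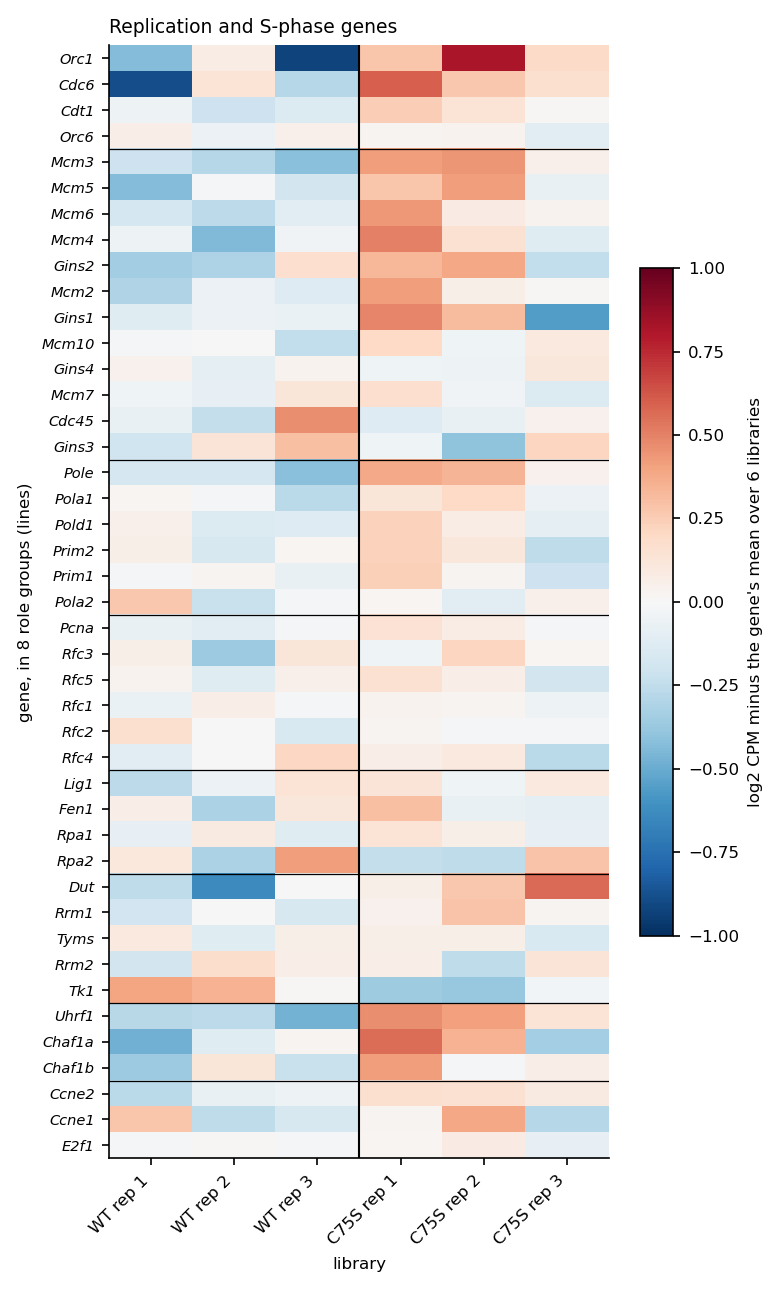
Log2 CPM of each of the 43 genes (rows, in role groups) in each library (columns), relative to that gene's mean over 6 libraries. Red cells gather in C75S replicates 1 and 2 in the helicase and chromatin rows, and C75S replicate 3 is paler.

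Markers of other liver cells moved with genotype in part, and the most abundant gene of a list could dominate its sum, so each sum is also given without that gene (a choice made after seeing the data). The 10 cholangiocyte markers summed to 239.8, 212.9 and 185.7 CPM in C75S replicates 1, 2 and 3, all above the WT range of 164.6 to 172.0 CPM. *Spp1*, osteopontin, carried this pattern, at 156.6, 132.9 and 105.0 CPM in C75S and 83.9, 96.5 and 92.5 CPM in WT (log2 fold change 0.53, edgeR adjusted p = 0.235). Without *Spp1* the sums were 80.0 to 83.3 CPM in C75S and 75.4 to 80.7 CPM in WT, which overlap. In this list *Krt19* rose (log2 fold change 0.80, edgeR adjusted p = 0.0015), the single call among 6 tested genes. Of these 6, 4 had positive and 2 negative estimates, with a median of 0.46. At an unadjusted p-value under 0.05, 3 were higher: *Krt19*, *Spp1* and *Prom1* (0.47, edgeR adjusted p = 0.184, groups without overlap). Of all tested genes, 49.1% had a positive estimate and 6.91% were higher at that level. Among the genes not tested, *Cftr* had no count and *Epcam* averaged 0.05 CPM in C75S against 0.30 in WT.

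The 10 endothelial markers summed to 43.2 to 54.9 CPM in C75S and 42.7 to 52.3 CPM in WT. *Stab2*, a scavenger receptor of sinusoidal endothelium, made up much of this, with means of 24.9 CPM in C75S and 26.4 CPM in WT. Without *Stab2* the sums were 25.4, 22.6 and 24.8 CPM in C75S and 21.1, 19.5 and 18.0 CPM in WT, so the groups did not overlap. Of the 8 tested, 6 had positive estimates, with a median of 0.37, 0 were called, and 2 were higher at an unadjusted p-value under 0.05: *Lyve1* (0.85, edgeR adjusted p = 0.131) and *Pecam1* (0.70, 0.208). Of all tested genes, 49.1% had a positive estimate and 6.91% were higher at that level. Stellate cell and fibroblast markers summed to 58.3 to 75.7 CPM in C75S and 72.3 to 94.3 CPM in WT, most of it *Reln*, at 58.7 and 75.2 CPM on average. Without *Reln* the direction turned, with 9.42, 8.44 and 8.51 CPM in C75S above 6.50, 6.19 and 5.68 CPM in WT, and 1 of 5 tested genes, *Acta2*, rose (log2 fold change 0.82, edgeR adjusted p = 0.0255).

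Kupffer cell and macrophage markers overlapped, at 96.6 to 140.5 CPM in C75S and 104.1 to 135.0 CPM in WT, with 0 of 2 tested genes called. Nearly all of that sum was *Cd68*; *Adgre1*, *Clec4f*, *Cd5l* and *Timd4*, which define Kupffer cells, were at or near 0. The 10 hepatocyte markers summed to 67965, 74574 and 81574 CPM in C75S and to between 78386 and 85387 CPM in WT, with C75S replicate 1 lowest. Without *Alb*, which dominates this sum, the level was 12322, 14868 and 15102 CPM in C75S, below 15289 to 15933 CPM in WT. Much of that remainder was *Cyp3a11*, at 4747, 6583 and 6116 CPM in C75S against 7245, 6613 and 7046 CPM in WT. Of the 10 markers, 4 had positive and 6 negative estimates, with a median of -0.02, so the lower sums do not stand for the whole list. *Cyp2e1*, a pericentral cytochrome P450, was the hepatocyte marker called: it rose by 0.31 on the log2 scale (edgeR adjusted p = 0.00908). The part of these cells in the result was not tested.

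No gene of the wider replication and S-phase program was called. Of 54 further genes, 52 were tested and 0 were called by edgeR, DESeq2 or limma-voom, with 3 higher and 1 lower at an unadjusted p-value under 0.05 in edgeR. The 3 were *Ccna2*, *Clspn* and *E2f2*, and the lower one was *Cdc25a*, where 6.91% of all tested genes were higher at that level. The median log2 fold change was 0.01, with 29 positive and 23 negative, and the summed level was 772.7 to 800.4 CPM in C75S against 778.3 to 792.4 CPM in WT. The nearest to the threshold was *Ccna2*, the cyclin of S phase and G2, at 6.49 ± 1.03 CPM in C75S against 4.25 ± 0.69 CPM in WT (log2 fold change 0.61, edgeR adjusted p = 0.0582). This list holds many genes that are transcribed throughout the cell cycle, such as *Orc3*, *Pole3* and *Rb1*, alongside induced ones. Dependence on the cell cycle was not measured here, and its part in these values was not tested.

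Among genes of mitosis, most estimates were positive (of all tested genes, 49.1% were positive and 3.11% were called). Of 30 listed, 29 were tested, 27 had a positive estimate, the median was 0.45, and 3 rose: *Mki67*, the proliferation marker, at 0.67, *Anln*, a cytokinesis scaffold, at 0.45, and *Tpx2*, a spindle assembly factor, at 0.66 (edgeR adjusted p = 0.00973, 0.0292 and 0.0404). Their summed level in C75S followed the same libraries, at 153.3, 132.5 and 105.9 CPM in replicates 1, 2 and 3, against 89.5 to 100.4 CPM in WT. None of the 3 was called without WT replicate 2, *Tpx2* was not called by limma-voom, *Mki67* was called alone without C75S replicate 1 or WT replicate 3, *Anln* was called alone without WT replicate 1, and *Tpx2* was not called without C75S replicate 2. Of 12 G1 cyclins, their kinases and inhibitors, 10 were tested. *Ccnd1*, the cyclin that opens the G1 to S transition, rose by a log2 difference of 1.06 (edgeR adjusted p = 0.000228) and *Cdk6*, its kinase partner, by 0.23 (0.0145). *Cdkn1a*, which encodes the CDK inhibitor p21, fell by 0.18 on the log2 scale (0.0494). The *Cdk6* call was lost without C75S replicate 2 and without WT replicate 3. The *Cdkn1a* call was lost with RLE scaling, library-size scaling, unstranded counts and thinning, and on leaving out 4 of the 6 libraries in turn. A difference in shift between these lists and the 43 genes was not tested.

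**Figure D5:**
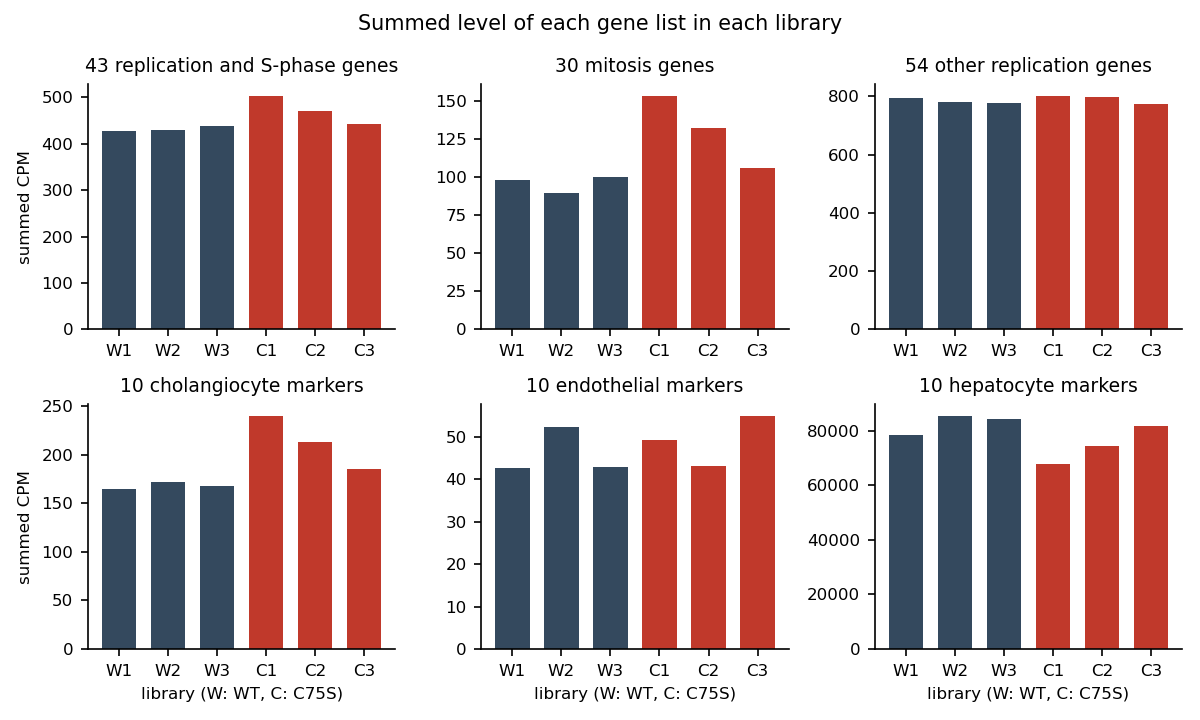
Summed CPM (y axis, from 0) of 6 gene lists in each library (x axis, W for WT and C for C75S replicates 1 to 3). The 43 replication and S-phase genes, the mitosis genes and the cholangiocyte markers are highest in C75S replicate 1, where hepatocyte markers are lowest (*Spp1* carries the cholangiocyte pattern), and the 54 further replication genes are level across the 6 libraries.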

How the data were processed

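The deposited files are raw counts per Ensembl gene, 1 table per library, in the layout that STAR writes. Trim Galore 0.6.6, STAR 2.7.9a and edgeR 3.36.0, with the builds mm10 and GRCm38, are named per the submitters' processing notes; the annotation release is not given in the sources used here. Reverse-strand counts were used, since they were 33.3 times the forward-strand counts in total, and the 4 summary rows were left out (multimapping reads were 18.0% to 18.5% of the reads, unmapped reads 4.37% to 5.81%). Multimapping reads are not counted to genes.

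Genes were filtered with filterByExpr (minimum count 10, minimum total 15), scaled by TMM and tested over all 12741 genes with edgeR 4.0.16 (R 4.3.3) by a two-sided quasi-likelihood F-test that had genotype as its sole term, Benjamini-Hochberg adjustment and a threshold of 0.05. The standard error is the log2 fold change divided by the square root of F. Positions are from GENCODE M21, promoters from RefSeq (GRCm38.p6). Copies were sought with BLAST among the longest transcripts. Libraries held 16944723 to 21044292 counts.

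The 43 genes and the other lists were chosen with earlier results of these data known. Values in every library are given for called genes, for the most abundant gene per length and the gene with the smallest p in each role group, and for the largest and smallest estimates; called genes of the mitosis and G1 lists are named, up to 3 a list, and *Ccna2*, *Clspn*, *E2f2* and *Cdc25a*, the marker genes and members given by a single value were named after their values were seen. Alternatives were 3 scalings, DESeq2 1.42.0, limma-voom (limma 3.58.1), 2 filters, unstranded counts, a replicate block, thinning, removal of mitochondrial genes and leaving out each library.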

Additional observations from a re-analysis of the deposited data

How the results depend on the processing

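With all 6 libraries, the number of the 43 genes called stayed between 2 and 4 in all 11 alternatives, and every call was a rise. DESeq2 and limma-voom called 2 (*Mcm3* and *Mcm6*). Library-size scaling, no filter beyond 1 count, thinning and the replicate block called 4, with *Dut* added. Leaving out 1 library gave 0 calls without WT replicate 2 and up to 4 without C75S replicate 3 (1.55% and 2.72% of all tested genes in those fits), and a median log2 fold change of 0.079 when C75S replicate 1 was left out and up to 0.179 when C75S replicate 3 was, against 0.12. Positive estimates numbered from 27 to 36 in those fits and from 31 to 34 in the others (of 41 genes with the filter at a mean of 1 CPM, of 43 elsewhere); these sign counts under each setting were chosen after seeing the data. The mitosis genes called ranged from 0 to 4 and the G1 genes from 1 to 3 when a library was left out. Of the 54 further replication genes, 0 to 1 were called when a library was left out, and 1 with no filter beyond 1 count; that gene was *Ccna2*. The cause was not tested.

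The correlation of same-numbered libraries' deviations from their group mean was 0.017, -0.040 and 0.025 over 12741 genes. Libraries of different numbers gave -0.044 to 0.024. These values show no pairing by replicate number, but with 3 libraries per genotype they cannot exclude one. The fit with the replicate block called 480 of all tested genes against 396, and 4 of the 43. Thinning to 16944723 counts left a median of 0.15. *Orc1* and *Cdc6*, at 5 to 22 counts per library, are limited by depth.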

Other observations

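*Prim1*, the catalytic primase subunit, starts on chromosome 10 at 128015168 on the plus strand, 7557 bases from the start of *Hsd17b6*, which is read away from it on the minus strand (GRCm38). *Hsd17b6*, a steroid dehydrogenase gene, rose by 1.95 on the log2 scale (edgeR adjusted p = 3.42e-08). *Prim1* averaged 3.67 ± 0.57 CPM in C75S against 3.54 ± 0.13 in WT (mean ± SD, n = 3), a log2 fold change of 0.05 with a 95% interval of -0.36 to 0.46. The *Prim1* groups overlapped. The pair was chosen after its values were seen.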
